A study of Mus musculus with 6 samples.

Results

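The Polycomb repressor subunits described here are 10 genes, taken as every probe of a mouse expression array whose gene name is Bmi1, Ezh1, Ezh2, Eed, Suz12, Cbx2, Cbx7, Ring1, Rnf2 or Phc1. They make up 10 of 34650 gene names and 16 of 55681 probes on the array. RNA came from CD48-negative, c-Kit-positive, Sca-1-positive and lineage-negative bone marrow cells, a sorting gate rich in haematopoietic stem cells and early progenitors. Both groups are labelled as strain C57BL/6: 3 wild-type samples (WT) and 3 samples with the genotype Spred1 KO, each on its own array labelled with Cy3. The protein made from Spred1 restrains Ras-ERK signalling downstream of growth factor receptors. The sources used here do not give age, the design of the Spred1 allele or whether each sample is a single animal. P-values therefore measure only the spread among these samples, and that spread may be technical.

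Polycomb proteins keep genes silent by modifying histones. Polycomb repressive complex 2 (PRC2) methylates histone H3 through Ezh2 or its paralogue Ezh1, which work only together with Eed and Suz12. Polycomb repressive complex 1 (PRC1) ubiquitylates histone H2A through Rnf2 or Ring1, joined to a Pcgf protein such as Bmi1. Its canonical form adds a Cbx protein that reads the methyl mark and a Phc protein. In blood stem cells the group is best known through Bmi1, which sustains self-renewal and keeps the Cdkn2a locus silent, and through Cbx7 and Ezh1, both linked to maintenance of the stem cell state.

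The data show no called change of any of these subunits between genotypes. With limma, 0 of 14 tested member probes passed the adjusted threshold of 0.05, where 0.0324% of all 27808 tested probes did. At an unadjusted p under 0.05, 2 of the 14 were higher in KO and 0 were lower, against 6.72% and 4.73% of all probes. The genotypes did not overlap for the same 2 probes, higher in KO, and for 0 in the lower direction, against 9.24% and 9.45% of all probes. Mean values were lower in KO for 9 of the 14, against 50.3% of all probes. The 95% intervals of 12 of the 14 differences lay wholly within 1.5-fold in either direction. The other 2 belong to dim probes of Cbx7 and Phc1 that are assigned to Ensembl transcripts. Values below are log2 processed signals from which the 75th percentile of each array was subtracted, and 0 stands for a signal equal to that percentile. Differences are KO minus WT on this scale with the standard error (SE) of the fit, and adjusted p-values are Benjamini-Hochberg values over all tested probes unless stated otherwise.

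Where a gene has several probes, the letters of the probe decide which stretch of transcript was read, so stretches of the 5 probes on which the account of Ezh1, Cbx7 and Phc1 turns are shown, 5′ to 3′, with G and C in capitals. All of them are 60 bases long. The probe of Ezh1 is shown whole, and the others by their bases 31 to 60.
Ezh1 probe 3 (A_55_P2017086): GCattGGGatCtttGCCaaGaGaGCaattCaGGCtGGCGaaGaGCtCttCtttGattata
Cbx7 probe 1 (A_55_P1980408): GGGGaaGaCCCCaGCaCCCGCCCttGCtCC
Cbx7 probe 2 (A_55_P1980401): aattattaaaaaataCattaaaatGtCttt
Phc1 probe 1 (A_51_P433430): GtttCattttCtCCCttaataCtGaatatt
Phc1 probe 2 (A_55_P2186405): atGCtGCCtCtaatCCttaCCCaCtttttt
Cbx7 probe 2, the probe for the RefSeq mRNA of Cbx7, holds 20% G and C over its 60 bases. Only 0.275% of all 55681 probes hold as little, and the median probe holds 43.3%. Positions below are those of the scanner files on mouse build mm9. The files place probes by position and transcript only, and exon and UTR annotation was not used here.

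Of the PRC2 enzymes, Ezh2 was read by 1 probe (chr6:47480307-47480366, minus strand). It measured 2.01, 1.82 and 2.11 on the WT arrays and 1.89, 1.95 and 1.85 on the KO arrays. The genotypes overlapped, with WT replicate 2 the lowest of all 6 arrays. The difference was -0.085 ± 0.10 (SE; limma adjusted p = 0.749), with a 95% interval from 0.794-fold to 1.12-fold.

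Ezh1, the paralogue that takes the place of Ezh2 in non-dividing cells, had 4 probes on the minus strand of chromosome 11. Probe 1 (chr11:101052430-101052489) measured 4.29, 4.52 and 4.35 in WT and 4.43, 4.55 and 4.55 in KO. Probe 2 (chr11:101052680-101052739), which starts 250 bases from it, measured 2.56, 2.45 and 2.33 in WT and 2.50, 2.59 and 2.66 in KO. On both the KO values were mostly the higher ones, and the genotypes overlapped. The differences were 0.12 ± 0.099 and 0.14 ± 0.099 (SE; limma adjusted p = 0.623 and 0.589). Probe 3 (chr11:101054534-101054593), shown above, starts 2104 bases of genome from probe 1 and is assigned to the same RefSeq transcript. It was dim, at -1.85, -2.22 and -2.55 in WT and -2.03, -2.05 and -2.11 in KO. Its WT arrays spread over a wider range than its KO arrays, which all lay inside that range (difference 0.14 ± 0.17 SE, limma adjusted p = 0.745). Probe 4 (chr11:101058722-101058781), for an Ensembl transcript of Ezh1, cleared background on 1 array of WT and on 2 of KO, and was not tested. All 3 tested Ezh1 probes thus had higher mean values in KO, by 0.12 to 0.14, and none passed.

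Eed, the PRC2 subunit that binds the methyl mark and activates the enzyme, was read at chr7:97103264-97103323. It measured 3.69, 3.63 and 3.77 in WT and 3.68, 3.62 and 3.49 in KO. The KO values reached from within the WT range to below it (difference -0.098 ± 0.094 SE, limma adjusted p = 0.682). Slide 1 alone gave -0.0079 and slide 2 alone -0.28. Leaving out KO replicate 3 gave -0.045. Suz12, the scaffold of PRC2, was read at chr11:79847251-79847310. It measured 1.94, 1.74 and 1.81 in WT and 1.74, 1.73 and 1.59 in KO. The highest KO array reached just past the lowest WT array, and the difference was -0.14 ± 0.097 (SE; limma adjusted p = 0.574), or -0.085 without WT replicate 1. The 95% intervals were 0.800-fold to 1.09-fold for Eed and 0.772-fold to 1.06-fold for Suz12. Under normexp background correction, an alternative described below, the genotypes overlapped for neither Eed nor Suz12. The differences were then -0.13 and -0.15 (limma unadjusted p = 0.175 and 0.120).

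**Figure D1:**
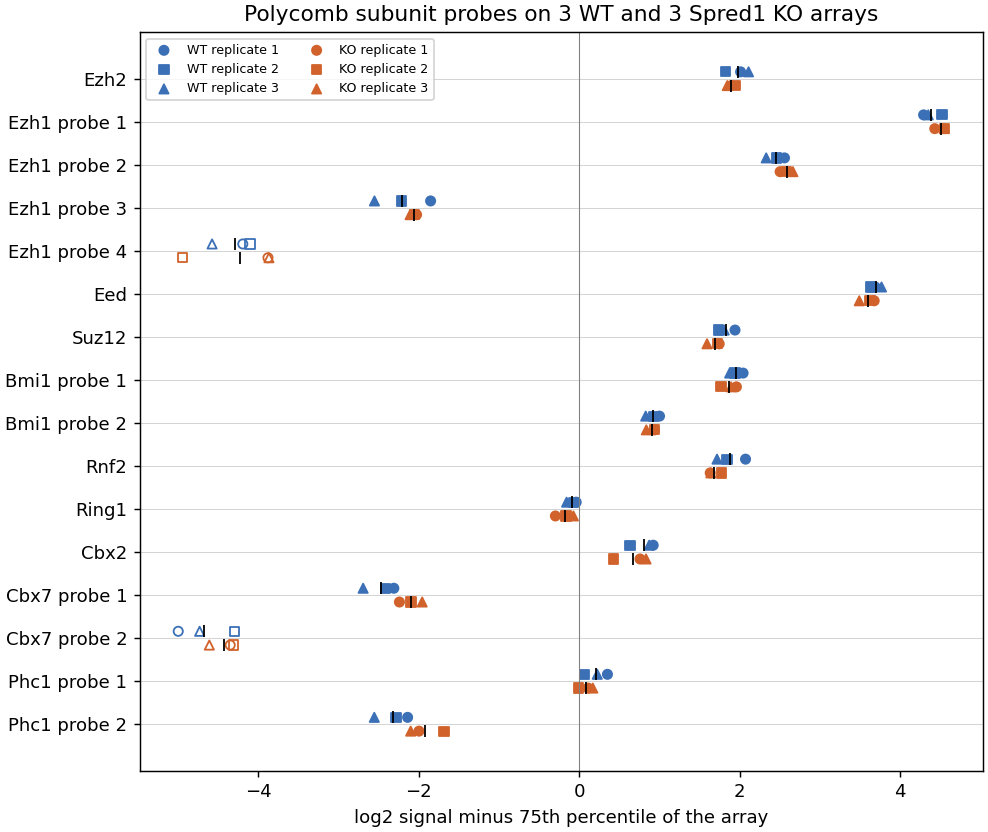
Log2 signal minus the 75th percentile of the array (x axis) for the 16 Polycomb probes (rows), with WT arrays in blue, KO arrays in orange, a symbol per replicate and a black line at each mean. Open symbols mark the 2 probes that were not tested. The genotypes overlap for all tested probes but Cbx7 probe 1 and Phc1 probe 2.

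Bmi1, the PRC1 subunit most closely tied to stem cell self-renewal, had 2 probes on the plus strand of chromosome 2. Probe 1 (chr2:18607531-18607590) measured 2.04, 1.94 and 1.87 in WT and 1.96, 1.77 and 1.89 in KO. Probe 2 (chr2:18607987-18608046) measured 1.0, 0.92 and 0.83 in WT and 0.94, 0.94 and 0.84 in KO. The genotypes overlapped on both probes. Their differences were -0.080 ± 0.096 and -0.013 ± 0.090 (SE; limma adjusted p = 0.743 and 0.960). The interval of probe 2 ran from 0.854-fold to 1.15-fold, the narrowest of the tested probes. Bmi1 lies on the same chromosome as Spred1, 98.4 Mb away.

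The ubiquitin ligases of PRC1 gave lower mean values in KO that did not pass. Rnf2, the main ligase, was read at chr1:153316987-153317046. It measured 2.07, 1.84 and 1.72 in WT and 1.63, 1.78 and 1.64 in KO. WT replicate 1 was the highest array, and KO replicate 2 lay above WT replicate 3. The difference of -0.19 ± 0.12 (SE; limma adjusted p = 0.536) was the lowest among the members, and its interval ran from 0.721-fold to 1.06-fold. It was -0.096 without WT replicate 1. Its paralogue Ring1, at chr17:34158164-34158223, measured -0.04, -0.07 and -0.16 in WT and -0.30, -0.17 and -0.07 in KO. The genotypes overlapped (difference -0.090 ± 0.096 SE, limma adjusted p = 0.716).

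The chromodomain subunits stood at different distances from background. Cbx2, read at chr11:118892363-118892422, measured 0.92, 0.63 and 0.87 in WT and 0.76, 0.43 and 0.83 in KO. Replicate 2 was the lowest array of either genotype, and the difference was -0.14 ± 0.14 (SE; limma adjusted p = 0.705). Without KO replicate 2 it was -0.014.

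Cbx7, the chromodomain subunit linked to stem cell self-renewal, gave values by 1 of its 2 probes only. Probe 2, for the RefSeq mRNA (chr15:79746240-79746299), was not well above background on any of the 6 arrays, with signals of 13.04 to 20.5 intensity units. Probe 1, assigned to an Ensembl transcript and starting 2365 bases of genome away (chr15:79748605-79748664), was well above background on all 6. It measured -2.31, -2.41 and -2.69 in WT and -2.24, -2.10 and -1.96 in KO. All 3 KO arrays lay above all 3 WT arrays. The difference was 0.37 ± 0.13 (SE; unadjusted p = 0.0271, limma adjusted p = 0.401), with an interval from 1.04-fold to 1.61-fold. Slide 1 alone gave 0.19 and slide 2 alone 0.74. After quantile normalization the genotypes overlapped (difference 0.30, unadjusted p = 0.0513).

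Phc1, a Polyhomeotic subunit through which PRC1 complexes cluster, had 2 probes on chromosome 6 that gave differences of opposite sign. Probe 1, for the RefSeq mRNA (chr6:122268043-122268102), measured 0.35, 0.06 and 0.22 in WT and 0.11, -0.01 and 0.17 in KO, with overlap and a difference of -0.12 ± 0.11 (SE; limma adjusted p = 0.655). Probe 2, assigned to an Ensembl transcript, lies 20478 bases of genome away at chr6:122288521-122288580. It measured -2.14, -2.28 and -2.55 in WT and -2.0, -1.69 and -2.10 in KO. Every KO array lay above every WT array on it, with a difference of 0.40 ± 0.15 (SE; unadjusted p = 0.0382, limma adjusted p = 0.424). Slide 1 alone gave 0.37 and slide 2 alone 0.45. Quantile normalization left the genotypes overlapping (difference 0.34, unadjusted p = 0.0656).

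**Figure D2:**
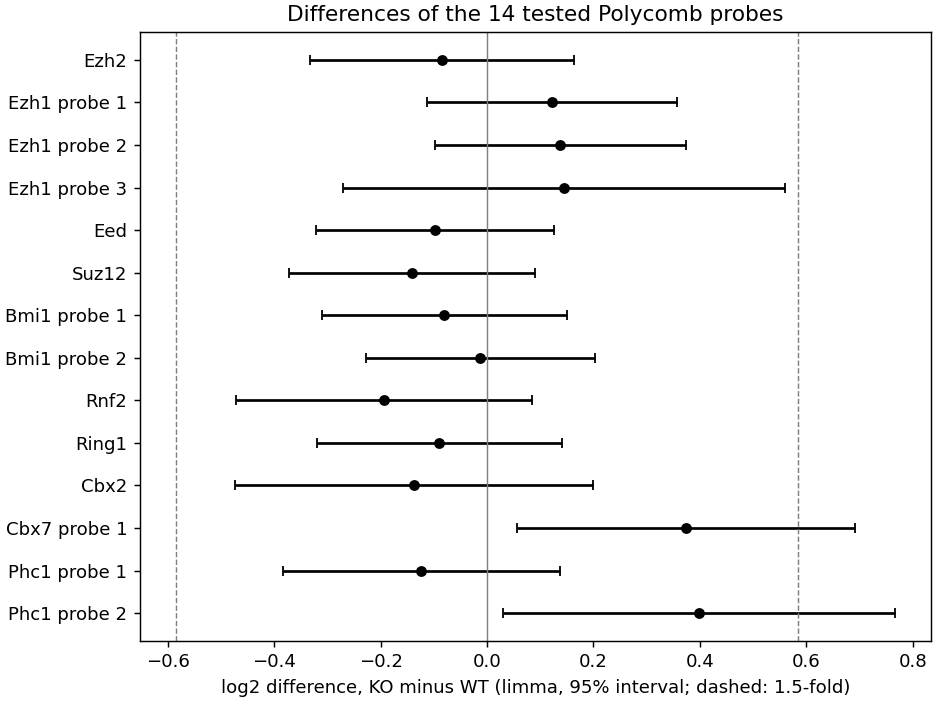
Log2 difference, KO minus WT (x axis), of the 14 tested Polycomb probes (rows) with 95% intervals from limma; dashed lines mark a 1.5-fold difference. The intervals of Cbx7 probe 1 and Phc1 probe 2 lie above 0 and reach past the dashed line, and the 12 others include 0.

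The sign of the members' differences mostly moved with signal level, as it did for all probes. Among the 3871 tested probes with a mean level between -3 and -2, the level of Cbx7 probe 1, Phc1 probe 2 and Ezh1 probe 3, 61.9% had higher values in KO, and the median difference was 0.077. All 3 member probes at that level were on this side. At that level 11.4% of all probes had every KO array above every WT array. Among the 3034 probes between 1 and 2, which hold Ezh2, Suz12, Rnf2 and Bmi1 probe 1, 63.0% had lower values, with a median of -0.052, and all 4 member probes were lower. After quantile normalization these medians were -0.0021 and -0.014. The 7 member probes at these levels kept their sign under it, at 0.30 for Cbx7 probe 1, 0.34 for Phc1 probe 2, 0.079 for Ezh1 probe 3, -0.15 for Rnf2, -0.094 for Suz12, -0.043 for Ezh2 and -0.036 for Bmi1 probe 1. Ring1, the only member probe between -1 and 0, had lower values in KO, where 51.8% of all probes had higher ones (median 0.012). Between 0 and 1 all 3 member probes were lower in KO, as were 54.7% of all probes. After quantile normalization Cbx2 measured -0.12 and Phc1 probe 1 -0.13, while Bmi1 probe 2 changed sign, to 2.4e-04. Ezh1 probes 1 and 2 had the opposite sign to the median at their levels, -0.048 between 3 and 5 and -0.059 between 2 and 3. Their differences after quantile normalization were 0.15 and 0.18 (unadjusted p = 0.187 and 0.120).

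**Figure D3:**
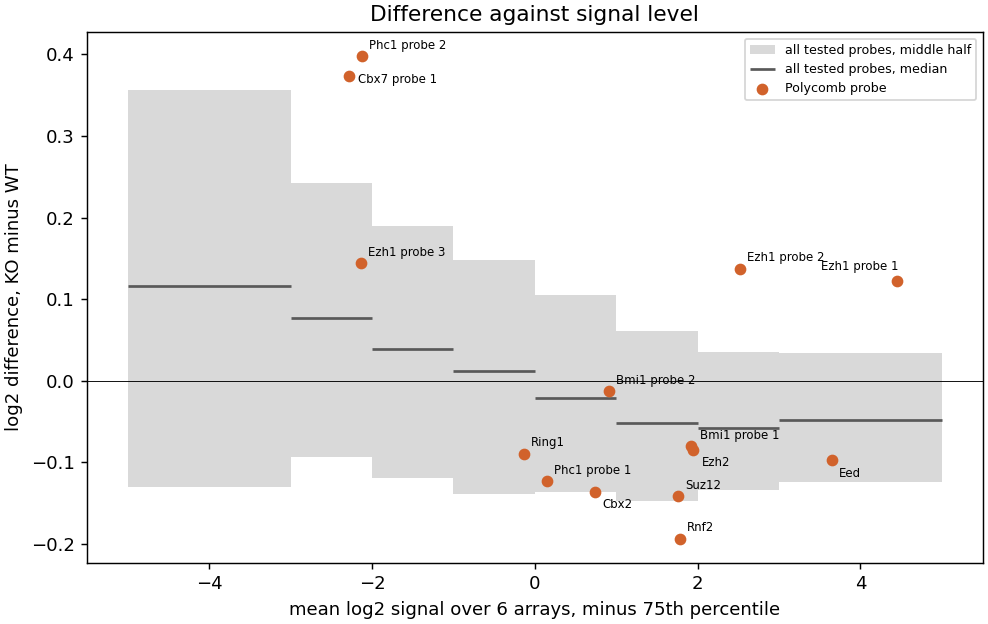
Log2 difference, KO minus WT (y axis), against the mean log2 signal over 6 arrays minus the 75th percentile (x axis). Grey bands and lines give the interquartile range and the median of all tested probes in each range of level, and orange points are the 14 Polycomb probes. The median of all probes goes from 0.12 at the dim end to -0.048 at the bright end.

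Ratios of paralogues within an array do not depend on a constant that scales the whole array. A shift that varies with signal level can remain in them. Of such ratios, 3 were compared with an exact two-sided permutation test, for which 3 against 3 arrays cannot go below 0.1. These are ratios of probe signals and say nothing of which paralogue was more abundant. The log2 ratio of Ezh2 to Ezh1 was -2.28, -2.70 and -2.24 in WT and -2.54, -2.60 and -2.70 in KO. WT replicate 2 lay among the KO arrays, and the difference was -0.21 (exact permutation p = 0.3, 0.45 adjusted over the 3 ratios). The ratio of Cbx2 to Cbx7 was 3.23, 3.05 and 3.57 in WT and 3.0, 2.52 and 2.79 in KO. It was lower on every KO array than on every WT array, by 0.51 (exact permutation p = 0.1, the smallest possible, and 0.3 adjusted). This ratio uses the dim Cbx7 probe 1 and shares the values given for it above. It sets probes of different signal levels against each other, and its difference was -0.43 after quantile normalization. The ratio of Rnf2 to Ring1 differed by -0.10, with overlap (exact permutation p = 0.6, adjusted 0.6). The WT means ± SD (n = 3) were -2.41 ± 0.25, 3.28 ± 0.26 and 1.97 ± 0.13 for the 3 ratios, and the KO means were -2.61 ± 0.085, 2.77 ± 0.24 and 1.86 ± 0.13.

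**Figure D4:**
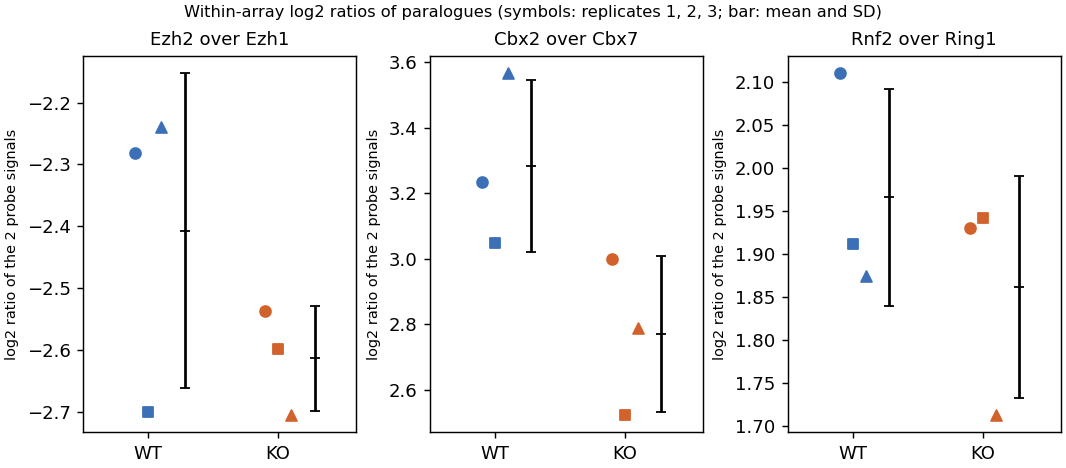
Within-array log2 ratio of the signals of 2 paralogues (y axis, own scale in each panel) on WT (blue) and KO (orange) arrays, with a symbol per replicate and a black bar for mean and SD. The genotypes are apart for Cbx2 over Cbx7 and overlap for Ezh2 over Ezh1 and for Rnf2 over Ring1.

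The partners of the core subunits were read with 1 probe per gene, the brightest, and p-values adjusted over all 19610 tested genes. In this fit 0 of the 10 core subunits passed, against 0.0204% of all genes, and 1 (Cbx7, higher) had an unadjusted p under 0.05, against 7.06% of all genes in that direction. Cbx7 was also the only one of the 10 whose genotypes did not overlap, against 19.6% of all genes in either direction. Of the core subunits, 8 of 10 had lower values in KO, where 51.2% of all genes did, and their median difference was -0.094 beside -0.0063 for all genes. Relative to the WT mean of each gene, the median subunit stood at 0.10 on WT replicate 1 and at -0.052 and -0.030 on WT replicates 2 and 3. In KO it stood between -0.088 and -0.051. The highest array was WT replicate 1 for 6 of the 10 subunits. Without WT replicate 1 the median difference was -0.067.

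PRC2 partners are the histone-binding proteins Rbbp4 and Rbbp7 and factors that steer the complex to chromatin. All 8 passed the filter on dim probes, 0 passed the adjusted threshold with limma, and 6 had lower values in KO (median -0.13, against 51.2% of all genes lower), 1 of them at an unadjusted p under 0.05, where 5.12% of all genes were lower at that p. This was Epop (E130012A19Rik on the array), which joins PRC2 to elongin proteins. It measured 1.64, 1.69 and 1.85 in WT and 1.40, 1.55 and 1.25 in KO, so that the genotypes did not overlap. Its difference was -0.33 ± 0.11 (SE; limma adjusted p = 0.378), -0.19 within slide 1 and -0.61 within slide 2. Rbbp4 differed by -0.18 ± 0.093 (SE; adjusted p = 0.458), while its other probe measured 0.21 higher in KO. Mtf2, a Polycomb-like protein that binds CpG-rich DNA, differed by -0.15 ± 0.080 (SE; adjusted p = 0.463). The genotypes did not overlap for 3 of the 8 PRC2 partners, Epop, Rbbp4 and Mtf2, all lower in KO. Over all genes 19.6% did not overlap in either direction.

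PRC1 partners are the other Cbx, Pcgf and Phc proteins and the subunits of variant PRC1. All 18 passed the filter, 0 passed the adjusted threshold with limma, and 16 had lower values in KO (median -0.12), 1 of them at an unadjusted p under 0.05. Over all genes 51.2% were lower, and 5.12% were lower at that p. That gene was Yaf2, a subunit of variant PRC1 that takes the place of a Cbx protein. It measured 2.16, 2.01 and 1.99 in WT and 1.62, 1.83 and 1.44 in KO, without overlap. The difference was -0.42 ± 0.12 (SE; limma adjusted p = 0.363), and its second probe measured -0.028. Pcgf6, a subunit of a germline-gene silencing form of PRC1, differed by -0.42 ± 0.21 (SE; adjusted p = 0.449), with KO replicate 2 inside the WT range and -0.26 without WT replicate 1. The genotypes did not overlap for 2 of the 18 PRC1 partners, Yaf2 among them, both lower in KO. Over all genes 19.6% did not overlap in either direction.

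Over core subunits and partners of both complexes, 30 of 36 genes had lower values in KO, where 51.2% of all genes did, and 0 passed. With the mean of a gene's tested probes in place of the brightest probe, 24 of 36 were lower, against 50.7% of all genes, and after quantile normalization 29 of 36. The probe choice takes the brightest probe of each gene. Between levels 0 and 3, from 54.7% to 67.3% of all tested probes were lower in KO. The part of signal level in the counts over the 36 genes was not tested. On the arrays, the median of the 36 genes stood at 0.066, -0.026 and -0.034 in WT and at -0.085, -0.071 and -0.16 in KO. Without WT replicate 1 the median difference was -0.084, with 30 lower, and without KO replicate 3 it was -0.093, with 30 lower.

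**Figure D5:**
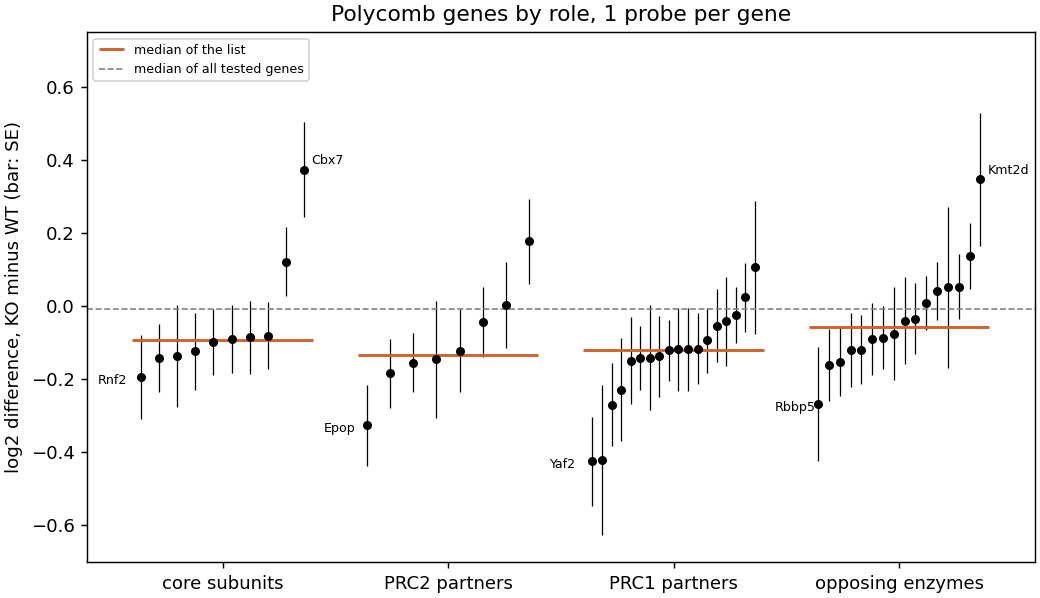
Log2 difference, KO minus WT (y axis), of each gene with 1 probe per gene, by role (x axis), sorted within a role; bars are SE, orange lines the median of a role and the dashed line the median of all tested genes. The medians of the roles lie between -0.13 and -0.058, and no gene passed the adjusted threshold.

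Enzymes that oppose Polycomb silencing were the fourth group: the demethylases Kdm6a and Kdm6b, the deubiquitylase Bap1 with its Asxl partners and Usp16, and the Trithorax methyltransferase complexes. All 16 passed the filter, 0 passed the adjusted threshold with limma, 0 had an unadjusted p under 0.05, and 10 had lower values in KO (median -0.058). Of all genes, 0.0204% passed, 7.06% were higher and 5.12% lower at that p, and 51.2% had lower values of any size. The methyltransferase gene Kmt2d measured 0.35 ± 0.18 higher (SE; adjusted p = 0.467), and its other probes reached down to 0.095. Rbbp5 (-0.27 ± 0.16 SE, adjusted p = 0.496) and Dpy30 (-0.16 ± 0.099 SE, adjusted p = 0.515), core subunits of those complexes, had lower values.

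Genes that Polycomb keeps silent in many tissues were mostly dark. Of 20 such genes, the cell cycle inhibitors Cdkn2a and Cdkn2b and 18 developmental transcription factor genes, 17 had no probe well above background on any array. Cdkn2a and Cdkn2b, with 2 probes each, were among the 17, so the arrays give no difference for either. By contrast the brightest probe of all 10 core subunits was well above background on all 6 arrays, as was that of 54.1% of all gene names. The neural factor genes Sox1 and Nkx2-2 were tested. Sox1 differed by 0.18 ± 0.18 (SE; limma adjusted p = 0.688) and Nkx2-2 by 0.34 ± 0.20 (SE; limma adjusted p = 0.509), at levels where the median probe was also higher in KO. Without WT replicate 2 these differences were 0.064 and 0.097. In bulk samples fewer cells of a type and less RNA per cell cannot be told apart.

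Proliferation genes are given beside the members because Ezh2, Eed and Suz12 are known to be expressed with the cell cycle. Of 14 such genes 0 passed with limma, 0 had an unadjusted p under 0.05, and 8 had lower values in KO (median -0.033). The shares over all genes were 0.0204% passed, 7.06% higher and 5.12% lower at that p, and 51.2% lower at any size. WT replicate 2 was the lowest array for 13 of the 14, with a median of -0.42 relative to the WT mean. Mcm2 measured 2.47 there, 3.17 and 2.96 in WT replicates 1 and 3, and 2.52 to 2.63 in KO (difference -0.30 ± 0.18 SE, adjusted p = 0.501). Mcm3 differed by -0.19 ± 0.12 (SE; adjusted p = 0.528) and Cdk1 by -0.21 ± 0.19 (SE; adjusted p = 0.640), while another probe of Cdk1 measured 0.59 higher in KO. Ezh2 was also lowest on WT replicate 2, while Eed and Suz12 were lowest on KO replicate 3. The difference of Ezh2 was -0.16 without WT replicate 2 and -0.020 without WT replicate 3. The part of proliferation in the Polycomb values was not tested.

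Facts of the whole series bear on these values as follows. The brightest Spred1 probe measured -0.14 ± 0.10 (SE), with a limma adjusted p of 0.590. Another differed by -0.98 ± 0.095 (SE; limma adjusted p = 0.0543), and the third, at -2.66 to -2.20 in WT and -0.15 to 0.23 in KO, by 2.44 ± 0.16 (SE; limma adjusted p = 0.0133), which passed. Since the deleted stretch is unknown here, none of them checks the labels. The gate genes Kit and Ly6a were well above background on all arrays, and so was Cd48, which the gate excludes. Of the lineage genes, Cd8a did not clear background anywhere, and Cd3e, Cd4, Itgam, Ly6g and Ptprc did on all 6 arrays. The summed signal of the 8 lineage genes, in multiples of the 75th percentile, was 42.3 to 44.5 in WT and 45.5 to 52.7 in KO. Most of it came from Itgam, an integrin of myeloid cells, at 32.8 to 34.5 in WT and 35.0 to 43.2 in KO. The 7 others summed to 9.53 to 9.98 in WT and 9.51 to 10.74 in KO. The Itgam values are those of its brightest probe, and Itgam did not pass the adjusted threshold with limma. Log2 differences of the 3 tested Itgam probes ran from 0.029 to 0.21. Over all genes 19.6% did not overlap in either direction. Among the WT arrays, Itgam was highest on WT replicate 1, at 34.5. WT replicate 1 stood apart, with a summed neutrophil signal (8 genes) of 93.9, while WT replicates 2 and 3 had 502 and 469 and KO arrays 321 to 423. It was also the lowest array in summed erythroid signal (6 genes, 11.6 against 23.1 to 47.1) and monocyte signal (7 genes, 7.80 against 9.94 to 12.7), though the erythroid sum was mostly haemoglobin and WT replicate 1 was lowest for 2 of the 4 erythroid genes tested. The part of these cells in the Polycomb values was not tested. Slide 1 held replicates 1 and 2 of both genotypes and slide 2 held replicate 3, and 9 of the 14 member probes had the same sign of difference within both slides.

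Promoters of Ezh1 and Ezh2 are shown because the paralogues gave mean differences of opposite sign, and that of Suz12 because it alone held an E2F-type motif. The RefSeq table (build GRCm38.p6) held promoters of 9 of the 10 genes, 1 each, and the 250 bases before the start are used here. All 9 held more CG dinucleotides than the median of 32851 promoters (6), with 8 for Phc1, 14 for Ezh1, 23 for Ezh2 and 37 for Suz12. Capitals mark matches on either strand to TTTCCCGC or TTTGGCGC (E2F type), CCGGAAG (ETS type) and CCAAT, none of which contains another.
Ezh2 (chr6:47595031-47595280, minus strand): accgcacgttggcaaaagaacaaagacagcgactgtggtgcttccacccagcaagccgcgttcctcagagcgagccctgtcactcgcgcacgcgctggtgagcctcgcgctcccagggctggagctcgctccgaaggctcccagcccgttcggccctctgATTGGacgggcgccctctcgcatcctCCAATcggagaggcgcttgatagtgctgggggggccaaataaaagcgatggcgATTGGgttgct
Ezh1 (chr11:101226464-101226713, minus strand): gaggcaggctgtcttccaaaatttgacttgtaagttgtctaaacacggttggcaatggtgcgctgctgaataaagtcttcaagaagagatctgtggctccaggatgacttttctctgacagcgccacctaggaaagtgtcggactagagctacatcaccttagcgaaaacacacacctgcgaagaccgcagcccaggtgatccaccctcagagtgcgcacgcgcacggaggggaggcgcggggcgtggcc
Suz12 (chr11:79992856-79993105, plus strand): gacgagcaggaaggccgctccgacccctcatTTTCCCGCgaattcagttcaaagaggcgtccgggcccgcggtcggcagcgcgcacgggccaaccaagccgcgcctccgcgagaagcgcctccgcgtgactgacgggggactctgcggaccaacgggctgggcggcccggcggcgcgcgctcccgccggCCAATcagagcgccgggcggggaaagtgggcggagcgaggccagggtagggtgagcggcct
Ezh2 held CCAAT at 3 places, 90, 64 and 11 bases before the start, and Suz12 and Cbx7 at 1 place each, while 33.8% of all promoters held it. The Ezh1 window held none of the motifs searched. TTTCCCGC, at 219 bases before the start of Suz12, was in 0.895% of all promoters. TTTGGCGC and CCGGAAG, held by 0.417% and 6.91% of all promoters, were in none of the 9. These matches describe the letters of the windows and are no evidence of binding.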

How the data were processed

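The scanner software was Feature Extraction 10.7.3.1 by Agilent, per the file headers. The deposited value of each spot is the processed signal, an intensity corrected by the authors' scanner software for background and trends within the array, per the file headers. Of 62976 spots, 59305 were not controls, and 92 to 155 outlier spots per array were left out. No spot was saturated, and no outlier spot fell on a member probe. The number of arrays limits the precision. Spots of a probe were averaged as log2 values, and the 75th percentile of the array was subtracted. Probes were tested where well above background on all 3 arrays of a genotype, with limma 3.58.1 in R 4.3.3 (lmFit, eBayes, KO against WT), once with every probe and once with the brightest probe of each gene. The fit was tested on simulated data. The authors' deposited value table holds this intensity over a single constant for each array (304 to 368), on a linear scale without centring, with medians of 0.0638 to 0.0750, and served as an alternative. Accessions of 13 of the 16 member probes matched RefSeq transcripts, all under the same symbol. Alternatives were quantile normalization, normexp background, other filters on dim probes, slide or replicate as a block, slide 1 alone, the mean of a gene's probes and leaving out each array.

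The members and gene lists were chosen with earlier results of these data known. Named genes are the members, the 3 genes of smallest p in each partner list and in the proliferation list, the tested silenced genes with Cdkn2a and Cdkn2b, Kit, Ly6a, Cd48 and Spred1. Lineage genes were named after their values were seen. Some genes that these rules name are not reported here.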

Additional observations from a re-analysis of the deposited data

How the results depend on the processing

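No member gene, member probe or partner gene passed the adjusted threshold under any of the alternatives run: quantile normalization, normexp background, the deposited value table, a stricter or no filter on dim probes, slide or replicate as a block, slide 1 alone, the mean of a gene's probes (genes only), and each array left out in turn. The smallest limma adjusted p of a member gene in any of them was 0.284. The median difference of the members stayed between -0.148 and -0.067. The 3 paralogue ratios kept their sign where run, but not their size: differences ranged from -0.35 to -0.078 for Ezh2 over Ezh1, from -0.63 to -0.37 for Cbx2 over Cbx7 and from -0.15 to -0.030 for Rnf2 over Ring1. With an array left out, Bmi1 probe 1 ranged from -0.12 to -0.027, Ring1 from -0.14 to -0.030, Phc1 probe 1 from -0.20 to -0.054 and Ezh1 probe 1 from 0.074 to 0.19. With the main settings 4 of all genes were called; this became 1 with quantile normalization, 10 with normexp, 1 under the stricter filter (all 6 arrays above background), 0 without a filter, 1 within slide 1, 0 with the replicate block, 9 with the mean of a gene's probes, and 0 to 4 with an array left out; the cause was not tested. Replicate numbers were not treated as pairs, and the replicate block is given here only. Correlations of same-numbered deviations were -0.025, 0.15 and 0.071, and those of other numbers ran from -0.23 to 0.18. WT replicate 2 correlated best with KO replicate 2, while WT replicates 1 and 3 correlated best with a KO replicate of another number. With so few samples these values cannot decide whether the samples are paired.

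The following values changed sign. Ezh2 measured 0.0057 within slide 1. Bmi1 probe 2 measured 2.4e-04 under quantile normalization and -0.058 to 0.028 with an array left out (above 0 without WT replicate 1 or KO replicate 3). Ezh1 probe 3 measured -0.0054 within slide 1 and -0.028 (without WT replicate 3) to 0.32 with an array left out. With the mean of a gene's probes in place of the brightest, Phc1 went from -0.12 to 0.14, Rbbp4 from -0.18 to 0.015, Cdk1 from -0.21 to 0.19 and Spred1 from -0.14 to 0.44. With an array left out, Kit ranged from -0.20 to 0.020 (above 0 without WT replicate 1), Ly6a from -0.034 to 0.23 and Cd48 from -0.12 to 0.26 (both below 0 without WT replicate 1 or KO replicate 3). Under normexp another Spred1 probe was the brightest, at -0.90 (limma adjusted p = 0.0106).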
